A study of Rattus norvegicus with 50 samples.

Results

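A set of 163 genes had a higher mean level in rat medial prefrontal cortex on postnatal day 14 or 21 than on both day 8 and day 70. They were found among 13213 gene rows with a mean of at least 1 FPKM (a read density per length of transcript and per mapped read), out of 29516 rows in all. The rule pooled the 10 libraries of each day over both genotypes and worked on log2(FPKM + 0.5) after each library had been scaled by median ratio. The larger of the day 14 and day 21 means had to be at least 0.5 above both the day 8 and the day 70 mean, and the distance to the higher of those days is called the margin here. Rows with a few listed identifiers were also left out by the rule, so the 163 need not be every row that meets these limits. The 163 genes were therefore chosen by their own day means, which are given as a description with no test. Of the 163, 66 had the higher mean on day 14 and 97 on day 21.

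The libraries came from Wistar rats lacking the serotonin transporter (SERT knockout) and from wild-type Wistar rats, with medial prefrontal cortex taken on postnatal days 8, 14, 21, 35 and 70. There were 5 libraries for each genotype at each of the 5 ages, 50 in all, and the design compares the genotypes at each age. All 50 were made from total RNA depleted of ribosomal RNA and read as single ends of 50 bases. Nothing in the labels states that a group's 5 libraries were taken from different rats, so each p-value is set against the spread among libraries, which may be technical. No sex or rearing condition was given in the sources used here, and the knockout is described only as such, with no allele named.

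The serotonin transporter clears serotonin from the space around serotonergic terminals. In the young rodent cortex it is also carried for a time by neurons that do not make serotonin. The weeks between eye opening and weaning are a period of synapse formation, glial maturation and the start of myelination in the rodent cortex, and genes that serve only these steps can be higher then than in the newborn or adult. The deposited files name genes by Ensembl identifiers without symbols, and the reference table supplied did not hold these identifiers. The roles and sequences of the 163 genes and the level of the transporter itself were therefore not analysed here, and the tissue was not checked against cell type markers. In tissue RNA, fewer cells of a type and less RNA per cell cannot be told apart.

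The libraries were of unequal composition, which touches many of the 163 genes. Between 17890 and 20219 rows were above 0 in a library, and the number of the 163 genes listed at 0 was between 2 and 21. The summed FPKM of a library ran from 330440 to 2141919. The FPKM was also summed over the rows outside the set alone. The share of this second sum held by its 50 most abundant rows ran from 45.3% to 82.7%. By day this share averaged 63.9% on day 8, 60.1% on day 14, 66.0% on day 21, 69.9% on day 35 and 65.5% on day 70. Relative depth was estimated from 4202 rows above 0 in only some libraries. For each pair of libraries the most common ratio of their values was taken, assuming that these rows mostly held equally few reads. The depth was set against the median of all 50 libraries. It spanned 0.521 to 1.42 times that median in knockout and 0.397 to 1.35 times in wild type. In a principal component analysis of the spread within groups, component 1 carried 27.0% of that spread and component 2 carried 16.2%. On component 2, 4 libraries stood apart from the other 46. They were knockout libraries 30-5 of day 8 and 7-3 of day 35, and wild-type libraries 21-3 of day 14 and 16-2 of day 21. No library was set apart on component 1, where the values furthest from 0 were 0.341 and -0.326. These were knockout library 17-1 of day 21 and wild-type library 20-2 of day 14. Several counts and the margins of the genes named for their margin are also given without the 4 libraries of component 2.

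The 163 genes were sorted into 4 courses by the order of their day means, with no minimum difference and no test. In 64, the highest of all 5 day means was on day 14. In 45, it was on day 21, with day 14 at or above day 8. In a further 25, it was on day 21 after a day 14 mean below that of day 8. The remaining 29 had their highest mean on day 35, so their day means did not peak on day 14 or 21. Day 35 takes no part in the rule, and these 29 met it because days 14 or 21 stood above days 8 and 70. Of the 29, 27 were higher on day 21 than on day 14. Their median SD between libraries of a group was 1.14 on the log2 scale. Small differences between day means therefore do not settle a gene's course, and genes near a border could fall on either side.

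**Figure D1:**
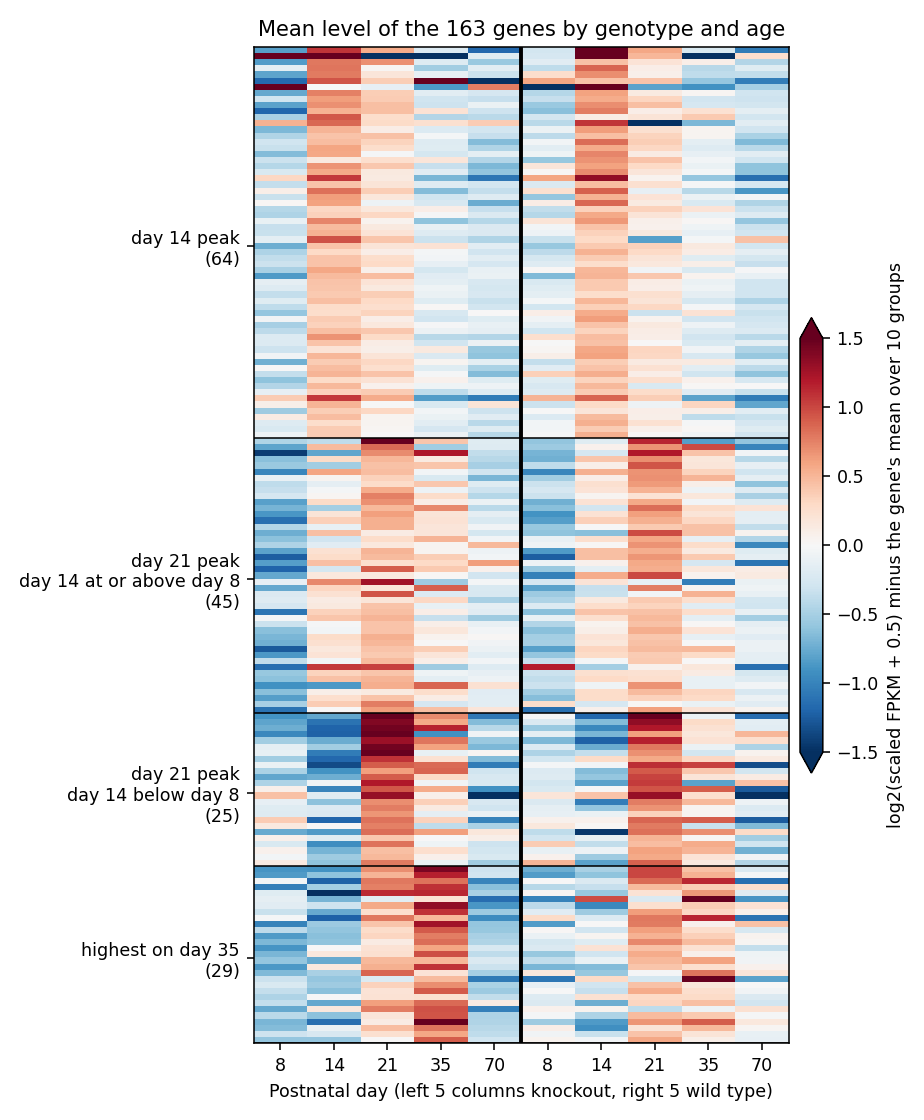
Mean log2(scaled FPKM + 0.5) of each of the 163 genes (rows) in the 5 knockout groups (left columns) and the 5 wild-type groups (right columns) by postnatal day, minus the gene's mean over the 10 groups. Rows are split by course and ordered by margin, and the 29 rows at the bottom are the ones with the highest mean on day 35.

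The median margin over the 163 genes was 0.64 on the log2 scale, with a range of 0.50 to 2.69, and 23 genes had a margin of at least 1, of which 13 were among the 25 with a fall on day 14. Most of the genes were low, with a mean under 10 FPKM in 104 of the 163 and a median of 5.77 FPKM, against 6.99 FPKM over the other rows with a mean of at least 1. The 3 genes just inside the threshold had margins of 0.501, 0.501 and 0.505, and the 3 just outside had 0.498, 0.497 and 0.493. The limit of 0.5 therefore cuts through a continuous run of values. The genes with a day 14 peak had median log2 levels of 2.66, 3.39, 3.06, 2.65 and 2.39 on days 8, 14, 21, 35 and 70. Those with a day 21 peak and no fall before it had 1.33, 1.89, 2.59, 2.17 and 1.50. Those with a fall on day 14 had 1.84, 1.22, 2.78, 2.42 and 1.76.

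Of the genes peaking on day 14, ENSRNOG00000020165 had the largest margin, 1.86 on the log2 scale. On day 14 its level was 7.32, 9.19, 7.78, 5.89 and 5.31 FPKM in the knockout libraries, against 10.3, 8.10, 11.9, 8.52 and 11.1 FPKM in the wild-type libraries. On day 8 it was 2.49, 0.865, 2.39, 1.08 and 1.28 FPKM in knockout, against 1.83, 1.57, 3.82, 3.31 and 2.24 FPKM in wild type. By day 70 it averaged 1.08 ± 0.195 FPKM in knockout and 1.23 ± 0.309 FPKM in wild type (SD, n = 5 each). All 10 day 14 libraries were above all 20 libraries of days 8 and 70, and without the 4 libraries that stood apart the margin was 1.76. The decline was gradual, with means of 4.93 FPKM in knockout and 5.22 FPKM in wild type on day 21, and of 2.62 and 2.58 FPKM in knockout and wild type on day 35.

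The second largest margin on day 14, 1.74, belonged to ENSRNOG00000036047, whose values were of another kind. It was listed at 0 in 10 of the 50 libraries, none of them from day 14, and ran from 27668 to 368667 FPKM in the other 40. On day 14 it was at 283681, 121280, 38161, 34866 and 132120 FPKM in knockout libraries, against 155626, 28376, 89540, 85211 and 265652 FPKM in wild-type libraries. Those values lie within the range of the libraries above 0 at the other ages. With the zeros left out its margin was 0.05, and with the composition share as a covariate 0.22, both below the rule's 0.5, while without the 4 libraries that stood apart it was 1.90.

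Among genes never listed at 0 and with no call on library composition (described below), the next largest margin on day 14 was that of ENSRNOG00000001628, at 1.12. This gene and the other genes of that kind were picked after their values were seen. On day 14 it was at 124, 93.1, 99.96, 83.2 and 107 FPKM in knockout, against 112, 96.7, 112, 95.3 and 25.8 FPKM in wild type. On day 8 it was at 48.4, 35.2, 54.0, 38.8 and 9.29 FPKM in knockout, against 63.9, 44.0, 64.5, 51.4 and 38.7 FPKM in wild type. The level was lowest, at 9.29, 10.4, 25.8 and 18.9 FPKM, in the 4 libraries that stood apart. Without them the margin was 1.09. Outside them, the day 14 libraries of both genotypes were above every day 8 library.

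Of the genes peaking on day 21, the largest margins rested on a few libraries. ENSRNOG00000043948, with a margin of 2.69, was at 0, 0.637, 187, 7.72 and 25.0 FPKM in the knockout day 21 libraries, against 0.969, 0.534, 40.3, 0 and 104 FPKM in the wild-type ones. It was listed at 0 in 23 of the 50 libraries. ENSRNOG00000034484, with a margin of 1.78, was at 0.533, 0, 51.5, 4.54 and 0.737 FPKM in knockout on day 21, against 0, 0, 20.3, 0 and 10.7 FPKM in wild type, and was listed at 0 in 31 libraries. In knockout, library 17-1 held the highest day 21 value of both genes. In wild type, libraries 15-2 and 16-2 held the highest ones. Library 16-2 is among the 4 that stood apart, and without those 4 the margin was 2.30 for ENSRNOG00000043948 and 1.53 for ENSRNOG00000034484.

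A steadier course was found at a smaller margin. ENSRNOG00000003894, with a margin of 1.01, was at 12.0, 12.2, 13.2, 13.0 and 12.6 FPKM in knockout on day 21, against 12.6, 13.2, 13.7, 15.6 and 18.3 FPKM in wild type. On day 8 it averaged 5.62 ± 1.34 FPKM in knockout and 5.22 ± 0.833 FPKM in wild type, and on day 70 6.63 ± 1.39 FPKM in knockout and 6.51 ± 0.917 FPKM in wild type (SD, n = 5 each). Its day 21 libraries did not overlap those of day 8 or 70, and without the 4 libraries that stood apart its margin was 0.96. ENSRNOG00000029886, also with a margin of 1.01, was at 90.0, 69.4, 179.8, 346 and 86.2 FPKM in knockout on day 21, against 147, 97.7, 82.7, 99.0 and 300.2 FPKM in wild type. The value of 300.2 is from library 16-2, and without the 4 libraries the margin was 0.90. This gene was less steady. In knockout its day 21 libraries overlapped those of day 8, which reached 95.5 FPKM, and in wild type they did not. Its median was higher on day 35 than on day 21, at 96.7 against 90.0 FPKM in knockout. In wild type the medians were 124.9 and 99.0 FPKM. Its day 14 mean was below its day 8 mean in knockout, at 35.1 ± 13.8 against 72.6 ± 18.4 FPKM, and not in wild type, at 68.4 ± 18.7 against 60.8 ± 22.9 FPKM (SD, n = 5 each). That difference between the genotypes was not tested on its own.

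**Figure D2:**
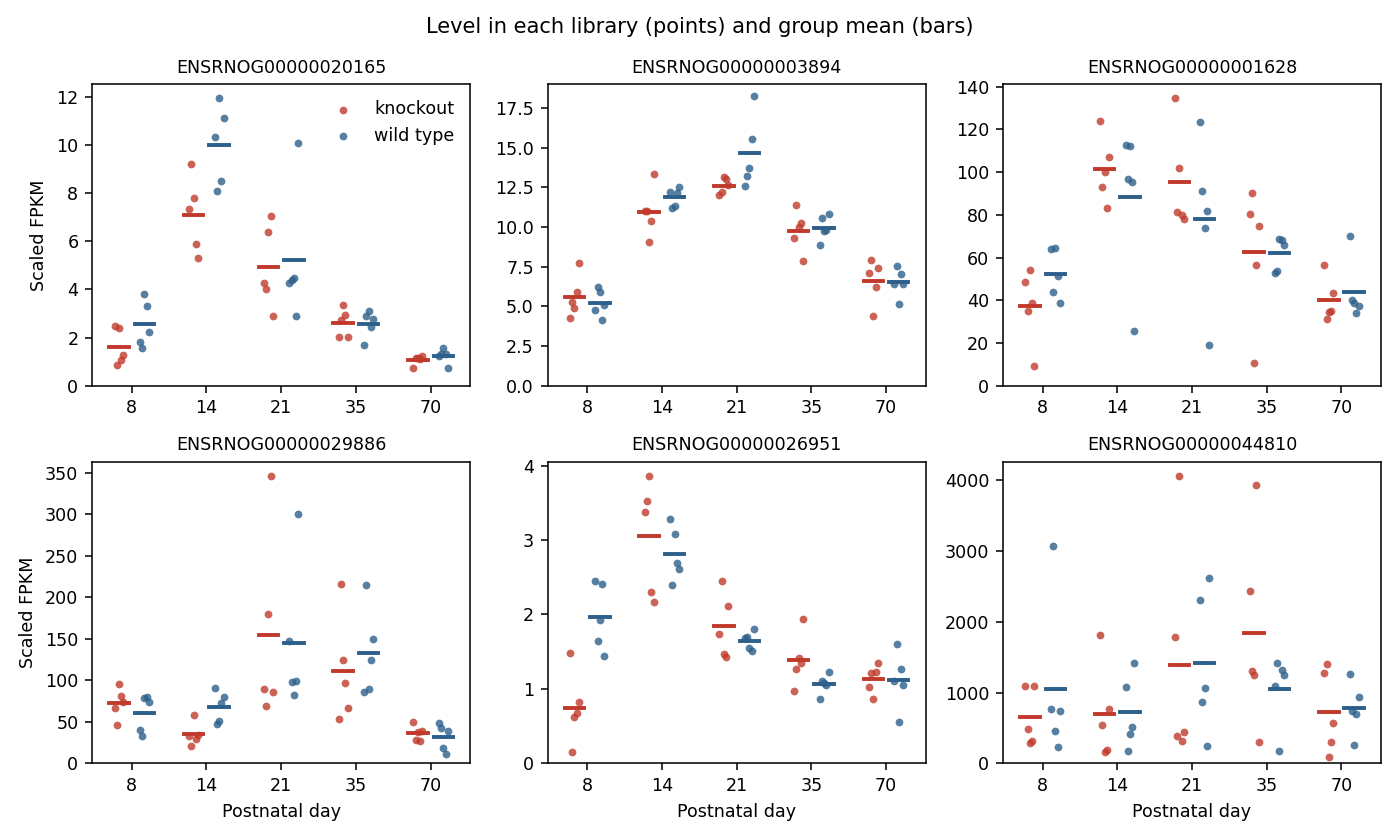
Scaled FPKM of 6 of the genes in each library by postnatal day, with knockout (red) left of wild type (blue), points for libraries and bars for the means of 5 libraries. ENSRNOG00000020165 and ENSRNOG00000003894 separate the peak day from days 8 and 70 in all libraries, while ENSRNOG00000044810 spreads from 94.0 to 4058 FPKM with overlap at every age.

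How cleanly a gene separated the days was described by whether every library of its peak day was above every library of days 8 and 70, in both genotypes. This held for 31 of the 163 genes, 17 with a day 14 peak and 14 with a day 21 peak. Over all 13213 rows with a mean of at least 1 it held for 96, or 0.727%, and since the rule selected on the same means nothing is read from the contrast. None of the 31 was listed at 0 in any library, and their median SD between libraries of a group was 0.19 on the log2 scale, against 0.39 over the 163 genes. None of the 25 genes with a fall on day 14 and none of the 29 highest on day 35 was among them.

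The genes differed widely in their spread between libraries. The SD within groups was under 0.5 on the log2 scale in 87 genes, between 0.5 and 1 in 26 and over 1 in 50. Its median was 0.26 in the genes with a day 14 peak, 0.29 in those with a day 21 peak and no fall, 0.80 in those with a fall on day 14 and 1.14 in those highest on day 35. Over the other rows with a mean of at least 1 the median was 0.19. A value of 0 in at least 1 library occurred in 36 of the 163 genes, or 22.1%, against 425 of 13050 other rows, or 3.26%.

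Library composition moved with a part of the set. A limma fit with the composition share as a covariate beside the 10 groups, added after the data were seen, called 45 of the 163 genes higher in libraries with a larger share and 6 lower, at an adjusted p under 0.05. Over all 14779 genes tested, 8.55% were called higher and 5.64% lower. Of the 29 genes highest on day 35, 21 were called higher, with a median slope of 0.78 on the log2 scale per 10 percentage points of share. Among the 64 genes with a day 14 peak, 5 were called higher and 5 lower, with a median slope of 0.01. Of the 45 with a day 21 peak and no fall, 9 were called higher and 1 lower, and of the 25 with a fall, 10 were called higher and 0 lower. The part of composition in the courses was not tested beyond these fits.

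The smallest p-values for the share belonged to ENSRNOG00000044810 and ENSRNOG00000041094, both highest on day 35. ENSRNOG00000044810 was at 2436, 1305, 1245, 3928 and 294 FPKM in knockout on day 35, against 1095, 1419, 181 (library 11-1), 1325 and 1244 FPKM in wild type. Its slope was 1.43 ± 0.08 per 10 percentage points (SE, limma, adjusted p = 1.01e-18), and that of ENSRNOG00000041094 was 1.39 ± 0.09 (adjusted p = 3.0e-17). Their margins were 0.56 and 0.68, and 0.26 and 0.39 with the share as a covariate, so neither met the rule in that fit. Without the 4 libraries that stood apart they were 0.49 and 0.53.

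**Figure D3:**
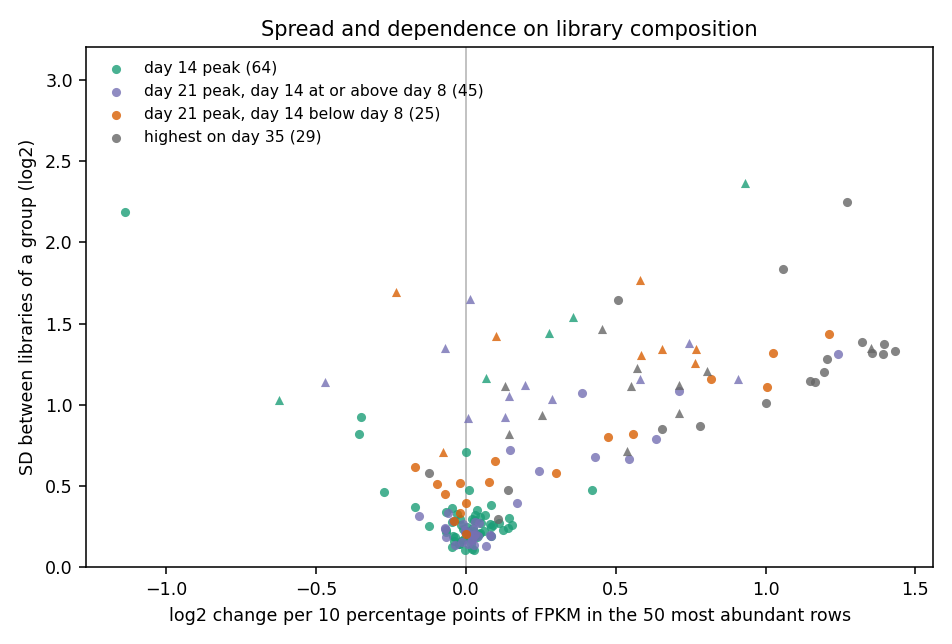
SD between libraries of a group (vertical, log2) against the change in level per 10 percentage points of the share held by the 50 most abundant rows (horizontal, log2), for the 163 genes except ENSRNOG00000036047, whose SD of 7.45 is off the scale. Colours give the course and triangles mark genes listed at 0 in at least 1 library, and the genes highest on day 35 lie mostly to the right.

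Membership was recounted under 3 conditions, all added after the data were seen. With the share as a covariate 166 rows met the rule, and 144 of these were among the 163 genes. With exact zeros left out 157 rows did, 143 of them among the 163. Without the 4 libraries that stood apart 168 rows did, 142 of them among the 163. All 3 conditions were met by 117 of the 163 genes. By course, these were 51 of the 64 genes with a day 14 peak, 35 of the 45 with a day 21 peak and no fall, 21 of the 25 with a fall on day 14, and 10 of the 29 highest on day 35. A smaller core of 91 genes was never listed at 0 and had no call on the share, with 50 higher on day 14, 41 higher on day 21, and a median margin of 0.62.

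Levels on day 35 were placed between the peak and day 70 as a description. Taking the peak as 1 and day 70 as 0, the median day 35 level was 0.43 over the 163 genes. It was 0.23 for the genes with a day 14 peak, 0.53 for those with a day 21 peak and no fall, and 0.48 for those with a fall on day 14. None of these courses can exceed 1, because genes above their peak on day 35 were placed apart. The rule had also selected on the peak and on day 70, and the levels were not tested. In 93 genes the day 35 mean was below the midpoint between peak and day 70, and 57 of these had a day 14 peak. In 17 genes it was already at or below the day 70 mean. Day 70 remained above day 8 in 97 of the 163 genes, so the adult level was not always the lowest.

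The rule was also applied to each genotype alone. It was met in knockout libraries alone by 131 of the 163 genes, in wild-type libraries alone by 119, in each of the genotypes by 88 and in neither by 1. The margin was positive in both genotypes in 152 genes, with medians of 0.68 in knockout and 0.61 in wild type, and the day with the higher mean was the same in both genotypes in 145. The 163 genes had been chosen on the pooled means of these same libraries, so such likeness is partly built in. These counts are a description and not a replication.

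**Figure D4:**
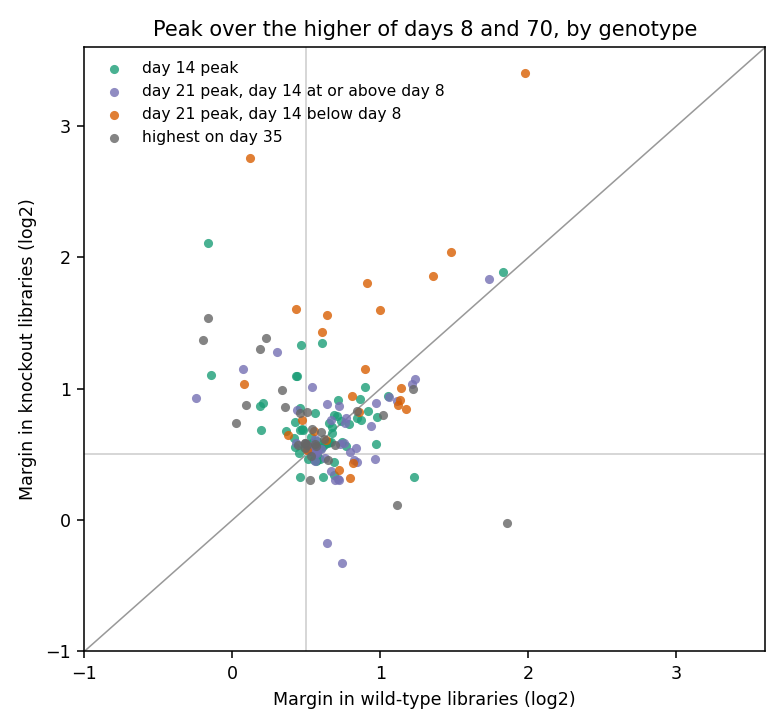
Margin of each of the 163 genes except ENSRNOG00000036047 in knockout libraries (vertical) and in wild-type libraries (horizontal), in log2 units, coloured by course. Grey lines mark the threshold of 0.5 in each genotype and the diagonal marks equal margins, and 152 of the 163 genes have a positive margin in both. The genes were chosen on the means of both genotypes pooled, so this is a description.

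Selecting in one genotype and testing in the other used libraries that the selection had not seen. The rule applied to the 25 knockout libraries gave 257 rows, of which 85, or 33.1%, were called higher on the selected peak day than on both day 8 and day 70 in wild type (limma, adjusted p under 0.05 on each side). Over all genes tested 2.75% were called so in wild type. The median change of the 257 in wild type was 0.48 against day 8 and 0.54 against day 70, with medians of 0.03 and 0.05 over all genes. Applied to the 25 wild-type libraries, the rule gave 182 rows, of which 75, or 41.2%, were called on both sides in knockout, against 3.06% of all genes tested. Their median changes in knockout were 0.80 and 0.56, with 0.06 and 0.06 over all genes. The lists shared 86 rows, 33.5% of the knockout-selected and 47.3% of the wild-type-selected list, and 51 of these were called in both tests. Of the called rows, 67 from the knockout-selected list and 66 from the wild-type-selected list were among the 163 genes. Without the 4 libraries that stood apart, the knockout-selected list held 269 rows and the wild-type-selected list 178. Of these, 94 (34.9%) and 88 (49.4%) were called, against 2.89% and 3.92% of all genes tested.

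Knockout and wild type were compared within each age. The pooled rule did not use the genotype difference. Apart from day 35, though, it used the same libraries through their day means. On day 8, 2 of the 163 genes were called, both lower in knockout, with 0.244% of all 14779 genes tested called. ENSRNOG00000026951, a gene with a day 14 peak, was at 1.48, 0.147, 0.624, 0.675 and 0.819 FPKM in knockout on day 8, against 2.44, 1.64, 1.93, 2.40 and 1.44 FPKM in wild type. The highest knockout library, 28-1, lay just above the lowest wild-type library, and the others did not overlap. The difference was -1.05 ± 0.18 on the log2(FPKM + 0.5) scale (SE, limma, adjusted p = 0.00366), a scale that understates the change of genes this low. On day 14 the gene averaged 3.05 ± 0.762 FPKM in knockout and 2.81 ± 0.364 FPKM in wild type (SD, n = 5 each).

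ENSRNOG00000017369, also with a day 14 peak, was at 1.90, 1.02, 1.31, 1.20 and 1.25 FPKM in knockout on day 8, against 2.30, 2.07, 2.56, 2.52 and 1.79 FPKM in wild type. Only knockout library 28-1 reached the wild-type range. The difference was -0.59 ± 0.12 (SE, limma, adjusted p = 0.0216). Neither call held when knockout library 29-4 was left out, with adjusted p = 0.0566 for ENSRNOG00000026951 and 0.158 for ENSRNOG00000017369, or when day 8 was fitted without the other ages, with adjusted p = 0.771 for both. For ENSRNOG00000017369 it was also lost without knockout library 30-1 (0.0734) or wild-type libraries 25-2 (0.0744), 26-1 (0.0876) or 27-2 (0.0546). Over the 58 alternatives tried, the adjusted p ran from 3.7e-05 to 0.771 for ENSRNOG00000026951 and from 0.00122 to 0.771 for ENSRNOG00000017369, and both differences stayed negative. Without the 4 libraries that stood apart it was 0.00229 for ENSRNOG00000026951 and 0.0197 for ENSRNOG00000017369.

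Most of the 163 genes had a lower day 8 mean in knockout, most of them by amounts that did not pass the test. The difference was negative in 123, or 75.5%, against 52.3% of all genes tested, with medians of -0.16 and -0.01 on the log2 scale. These day 8 values also entered the rule through the pooled mean, and the share was not tested. An unadjusted p under 0.05 was reached by 25 of the 163, or 15.3%, against 9.32% of all genes. By course the share with a lower mean was 79.7% of the day 14 peak genes, 66.7% of the day 21 peak genes with no fall, 64% of those with a fall and 89.7% of those highest on day 35. The median over the 163 genes, set against the wild-type day 8 mean, was 0.01, -0.24, -0.16, -0.22 and -0.11 in the 5 knockout libraries, against 0.05, 0.03, 0.02, -0.15 and -0.01 in the wild-type libraries. The groups overlapped, since knockout library 28-1 lay with the wild type and wild-type library 27-2 with the knockouts. Without the 4 libraries that stood apart the share lower was 73.0%, against 53.7% of all genes. With composition as a covariate it was also 73.0%, against 52.0% of all genes. In the values as deposited it was 82.2%, where 74.7% of all genes were lower. On day 14 the share lower in knockout was 64.4%, against 47.3% of all genes. Without the 4 libraries that stood apart it was 56.4%, against 49.6% of all genes. The share was 47.2% on day 21, 54.0% on day 35 and 52.8% on day 70, against 48.4%, 50.6% and 50.7% of all genes. With composition as a covariate it was 35.0% on day 21, against 47.9% of all genes. Whether the shift differed between the ages was not tested over the set.

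**Figure D5:**
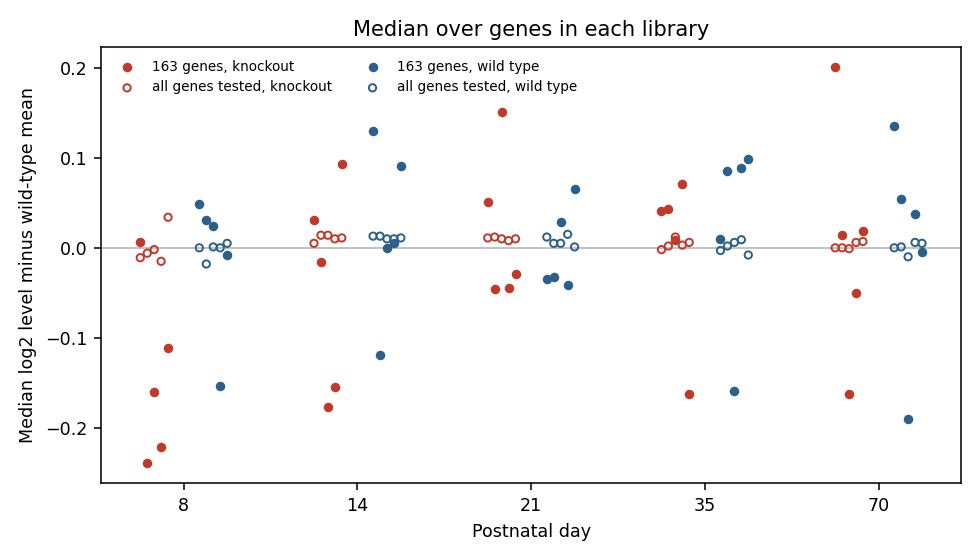
Median over genes of the log2 level minus the wild-type mean of the same day in each library, for the 163 genes (filled) and for all genes tested (open), with knockout (red) left of wild type (blue). On day 8, 4 of 5 knockout libraries have a median over the 163 genes of -0.11 or below, and 1 wild-type library does.

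At the later ages limma called 0 of the 163 genes. An unadjusted p under 0.05 was found for 9 of the 163 genes on day 14, 8 on day 21, 4 on day 35 and 4 on day 70. The share of all genes called was 0.00677% on day 14 and 0% on days 21, 35 and 70, with unadjusted p under 0.05 in 2.38%, 2.95%, 2.55% and 2.4% of all genes. Averaged over ages 0 were called in the set, with 0.0338% of all genes called, and 13 of the 163, or 7.98%, had an unadjusted p under 0.05, against 5.87% of all genes. The test of whether the genotype difference depended on age called 0 of the 163, with 0.00677% of all genes called and 11 of the 163, or 6.75%, at an unadjusted p under 0.05, against 3.18% of all genes. The smallest p among them was that of ENSRNOG00000026951, at 3.79e-05 with an adjusted p of 0.18.

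Peak height, the mean of days 14 and 21 minus the mean of days 8 and 70, was compared between the genotypes as a single contrast. By limma 0 of the 163 genes were called, with 0% of all genes tested called, and 14 of the 163 had an unadjusted p under 0.05, or 8.59%, against 5.51% of all genes. The contrast was positive in 99 of the 163, against 51.1% of all genes, with medians of 0.06 and 0.00. A positive contrast can come from lower levels on days 8 and 70 in knockout as well as from higher peak days. The median of knockout minus wild type over the 163 was -0.16 on day 8 and -0.06 on day 14. It was 0.01 on day 21 and -0.02 on day 70. ENSRNOG00000026951 had a contrast of 0.60 ± 0.18 (SE, limma, adjusted p = 0.815), and its day 8 level enters it. Among genes with a negative contrast, the smallest p was that of ENSRNOG00000000167, at -0.70 ± 0.24 (SE, limma, adjusted p = 0.815), and other genes with a larger spread had lower values. On day 14 that gene was at 0.690, 0.658, 1.36, 0.450 and 1.32 FPKM in knockout, against 1.82, 0.910, 1.87, 1.53 and 1.97 FPKM in wild type. On day 21 it averaged 2.73 ± 1.50 FPKM in knockout and 3.09 ± 1.74 FPKM in wild type, and on day 70 1.34 ± 0.367 FPKM in knockout and 0.854 ± 0.288 FPKM in wild type (SD, n = 5 each). The groups overlapped on all 3 of these days. The margin of ENSRNOG00000000167 was 0.55, and without the 4 libraries that stood apart it was 0.46, below the rule's 0.5. Its highest day 21 value, 6.13 FPKM, was in wild-type library 16-2, which is among those 4. A p that misses the threshold does not show that peak heights were alike.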

How the data were processed

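The authors deposited 1 table of FPKM values per genotype, 29516 Ensembl gene rows by 25 libraries each, with no counts. Per the submitters' processing notes BWA 0.6.1, bedtools and Cufflinks were used with the rn4 build, while the labels' protocol names gsnap as the aligner, and neither source says which reads entered a value. Strand use in counting was not stated either, so overlapping or near-identical genes cannot be told apart. The number of reads behind a value is unknown. Columns were joined by row identifier and scaled by median ratio to the geometric means of rows above 0 in all 50 libraries, with factors from 0.829 to 1.2.

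Genes with a mean scaled FPKM of at least 0.5 (14779) were tested on log2(FPKM + 0.5) with limma 3.58.1 (R 4.3.3), 1 mean for each of 10 groups, an intensity trend, robust variances and Benjamini-Hochberg adjustment over all genes tested at 0.05. The procedure was also run on simulated data with independent noise, without exact zeros and without spread shared by the genes of a library. That run therefore does not cover these features of the data. The list and the tests were chosen with earlier results of these data known. Named genes are the 2 with the largest margin per peak day and at most 2 per direction in a genotype contrast. ENSRNOG00000001628, ENSRNOG00000003894, ENSRNOG00000029886, ENSRNOG00000044810 and ENSRNOG00000041094 were singled out after their values were seen. The alternatives were unscaled values, pseudocounts of 0.1 and 1, no filter on low values, each day fitted alone, the first number of the title (shared by some libraries of a group, with a meaning the labels do not give) as a random effect, and each library left out, and, added after the data were seen, the composition covariate, zeros left out and the 4 libraries left out. Figures were drawn with matplotlib 3.10.9.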

Additional observations from a re-analysis of the deposited data

Results flagged for a closer look

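Among 12 named genes and 10 groups of 5 libraries, 18 of 120 groups held a library whose gap to the nearest other was above the 95% critical value of Dixon's test, 0.71 of the group's range, which chance gives in about 1 in 20 groups. Several share a library or a gene with many zeros, so they are not independent.

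ENSRNOG00000001628 had 5 of the 18. It was low at 9.29 FPKM in knockout library 30-5 of day 8 (others 35.2 to 54.0), at 10.4 FPKM in knockout library 7-3 of day 35, at 25.8 FPKM in wild-type library 21-3 of day 14 and at 18.9 FPKM in wild-type library 16-2 of day 21. These are the 4 libraries that stood apart. It was high at 70.0 FPKM in wild-type library 2-2 of day 70.

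ENSRNOG00000036047 was at 0 in knockout library 1-2 of day 70 and in wild-type libraries 25-3 of day 8, 14-1 of day 21 and 2-2 of day 70, with 27668 FPKM or more in the others of each group. ENSRNOG00000043948 was above 0 in 1 library of its group, with the others at 0, in knockout library 5-2 of day 70 (0.889 FPKM) and wild-type libraries 20-6 of day 14 (0.482 FPKM) and 3-1 of day 70 (0.631 FPKM). ENSRNOG00000034484 was alone above 0 in knockout library 28-1 of day 8 (1.36 FPKM) and wild-type libraries 25-3 of day 8 (0.617 FPKM) and 3-1 of day 70 (0.650 FPKM). ENSRNOG00000020165 was low at 0.748 FPKM in knockout library 1-2 of day 70. Wild-type library 11-1 of day 35 was low for ENSRNOG00000044810, at 181 FPKM, and for ENSRNOG00000041094, at 252 FPKM.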

How the results depend on the processing

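The number of genes meeting the rule was 172 in values as deposited (137 shared with the 163), 211 with a pseudocount of 0.1 (161 shared), 122 with a pseudocount of 1 (122 shared), 237 with no filter on low values (163 shared), and 138 to 198 with 1 library left out. With no filter, 146 genes were higher on day 21 than on day 14 and 146 had a day 35 mean below the midpoint of peak and day 70. With 1 library left out these counts ran from 70 to 132 and from 85 to 108. The count of genes called on day 8 was 0 with the day fitted alone, 3 without the 4 libraries that stood apart and 0 to 7 with 1 library left out, with 7 without knockout library 28-1, 0 without knockout library 29-4 and 1 without knockout library 30-1 or wild-type library 25-2, 26-1 or 27-2. Averaged over ages the count was 1 without wild-type library 10-2 of day 35, and for dependence on age 1 without knockout library 28-1 of day 8. Without knockout library 30-5 the day 8 count was 3. For days 14, 21, 35 and 70 and for peak height the leave-one-out counts were 0. With a random effect for the title's first number (consensus correlation 0.0706) the day 8 count was 2, with adjusted p of 0.00699 for ENSRNOG00000026951 and 0.04 for ENSRNOG00000017369, and the other genotype counts were 0. Of the knockout-selected list 77 to 91 rows, and of the wild-type-selected list 65 to 75 rows, were called in the other genotype with 1 library left out. No paired analysis was possible because the replicate numbers of the titles never recur between groups. The reads behind each value are unknown, and 104 of the 163 genes have a mean under 10 FPKM.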
